A study of Homo sapiens with 6 samples.

Results

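The dual-specificity phosphatases that act on MAP kinases were followed across the 6 libraries of the study as 10 genes: DUSP1, DUSP4, DUSP5, DUSP6, DUSP7, DUSP8, DUSP9, DUSP10, DUSP14 and DUSP16. They were taken from the 26819 listed genes by symbol, and all 10 were found. The genes were chosen by family with earlier results of these data known, so their differences between the groups are given as a description without p-values. The libraries came from C4-2, a human prostate cancer line of the LNCaP lineage that grows without androgen. Every library was made from the Tet-O-YAP5SA derivative, in which doxycycline switches on a YAP1 form whose LATS phosphorylation sites are mutated to alanine. The Ctrl group (n = 3) had no doxycycline, and the Dox group (n = 3) had it for 24 hours at a dose labelled 0.2 mg/ml, a unit that may be mistaken. Cells without the transgene were not analysed here, so effects of the drug and of the transgene cannot be told apart. Whether the line is a single clone, or the replicates separate cultures, is not stated in the labels, so p-values measure only the spread among the libraries given, possibly a technical one.

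MAP kinases are switched on by phosphorylation of a threonine and a tyrosine in their activation loop, and dual-specificity phosphatases remove both phosphates. Several of these phosphatase genes are themselves induced by the kinases they switch off, which makes them feedback regulators and readouts of pathway activity. The family is usually divided into inducible nuclear enzymes (DUSP1, DUSP4, DUSP5), cytoplasmic enzymes that prefer ERK (DUSP6, DUSP7, DUSP9), enzymes that prefer JNK and p38 (DUSP8, DUSP10, DUSP16) and small atypical enzymes without the kinase-binding domain, such as DUSP14.

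The targeted gene followed the labels. YAP1 (ENSG00000137693.9) was at 52.7, 57.9 and 59.9 TPM (reads per gene length, set to a common total for all libraries) in Ctrl and at 263, 277 and 268 TPM in Dox. All 10 luminal prostate markers were above 1 TPM in every library, and their summed level was 6694 to 6789 TPM in Ctrl and 5592 to 5695 TPM in Dox. Of 5 analysed markers of stromal, endothelial and blood cells, the sum was 0.0174 to 0.0796 TPM in Ctrl and 0.494 to 0.625 TPM in Dox, and of 3 basal markers 1.36 to 1.71 and 1.17 to 1.76 TPM. KRT14 carried nearly all of the basal sum, and CDH5 (0.00658 TPM in Ctrl and 0.469 TPM in Dox on average) most of the stromal, endothelial and blood cell sum in Dox. The part of these markers in the results was not tested. Whole reads recovered from the values came to between 24941836 and 29239717 per library. In bulk RNA, fewer expressing cells and less RNA per cell cannot be told apart.

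The promoters of the genes with the largest rise, and of those with a cyclic AMP response element (CRE), are shown here because the values below return to them. RefSeq promoter windows (250 bases before to 50 after the start, GRCh38.p14) matched 8 of the 10 genes, with 10 windows in all. DUSP4 and DUSP5 had none. The 250 bases before the start are given on the gene's strand, with each CRE (TGACGTCA) and TATA box (TATAAA) in capitals, for DUSP14 at chr17:37489641-37489890 (plus strand), DUSP1 at chr5:172771196-172771445 (minus strand) and DUSP8 at chr11:1572272-1572521 (minus strand).
DUSP14: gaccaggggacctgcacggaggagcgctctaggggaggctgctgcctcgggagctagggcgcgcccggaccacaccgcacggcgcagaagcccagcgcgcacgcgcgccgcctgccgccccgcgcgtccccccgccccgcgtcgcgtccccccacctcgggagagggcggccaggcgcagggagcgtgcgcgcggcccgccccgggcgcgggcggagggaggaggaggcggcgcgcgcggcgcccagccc
DUSP1: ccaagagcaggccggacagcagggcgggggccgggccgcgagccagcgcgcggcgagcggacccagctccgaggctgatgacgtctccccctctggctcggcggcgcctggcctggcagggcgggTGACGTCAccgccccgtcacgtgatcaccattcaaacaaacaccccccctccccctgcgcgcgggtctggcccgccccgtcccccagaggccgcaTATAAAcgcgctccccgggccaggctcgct
DUSP8: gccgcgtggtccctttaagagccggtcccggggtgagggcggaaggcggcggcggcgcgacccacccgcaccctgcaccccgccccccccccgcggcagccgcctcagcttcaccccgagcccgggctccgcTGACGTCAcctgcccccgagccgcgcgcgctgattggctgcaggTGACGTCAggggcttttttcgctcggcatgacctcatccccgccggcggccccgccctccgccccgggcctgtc
The DUSP1 stretch has a CRE whose first base lies 125 bases before the start and a TATA box 30 bases before it. DUSP8 has a CRE at 118 and another at 74 bases before the start. A CRE, searched on both strands (it reads the same on each), was present in 1.85% of the 35116 windows of the table, and 2 or more in 0.0598%. The DUSP14 stretch holds neither motif, and 82.8% of its bases are G or C, against a median of 58.0% over all windows. High shares were not particular to DUSP14. The stretches of DUSP1, DUSP7, DUSP8, DUSP9 and DUSP16 were at 74.4% to 78.4%, and those of DUSP6 and DUSP10 at 55.2% to 57.2%. Searched on both strands, the TEAD motif GGAATG (14% of all windows), the AP-1 motif TGANTCA (7.71%), the ATF4 composite element TGATGNAA (3.62%) and the CArG box bound by SRF (1.29%) were in none of the 10 windows. The TATA letters were in 11.5% of all windows. A match is only a string of letters, and its absence from a short window says nothing of the factor.

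In GENCODE 29 (GRCh38) DUSP14 spans chromosome 17 from 37489831 to 37513501, DUSP1 chromosome 5 from 172768090 to 172771195, DUSP5 chromosome 10 from 110497838 to 110511544 and DUSP9 chromosome X from 153642492 to 153651326. The printed DUSP14 stretch, which ends at 37489890, thus lies partly inside the gene. DUSP8 starts at 1571920 on the minus strand, away from its printed stretch, which ends at 1572272. The motif distances above hold for the RefSeq starts. The values are for whole genes, and in GENCODE 29 no exon of the 10 overlapped one of another gene except in DUSP6. The annotation release used for the counting is not given, so overlaps in its gene models are not known.

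Of the 10 genes, 9 passed the filter on low values (at least 1 TPM in at least 3 libraries) and entered a limma fit of log2(TPM + 1) over all 14833 genes that passed. At a limma adjusted p under 0.05, 4 of these 9 were higher in Dox (DUSP14, DUSP1, DUSP8, DUSP4), 3 were lower (DUSP5, DUSP9, DUSP10) and 2 did not pass (DUSP7, DUSP16). In the background of all tested genes, 53.7% passed, 35.9% higher and 17.8% lower, and as the choice of genes knew this contrast nothing is read from the comparison. The groups were separate, with no overlap of libraries, for those same 7 genes and for 61.9% of all tested genes. The median log2 difference of the 9 was 0.20, beside 0.10 over all tested genes.

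**Figure D1:**
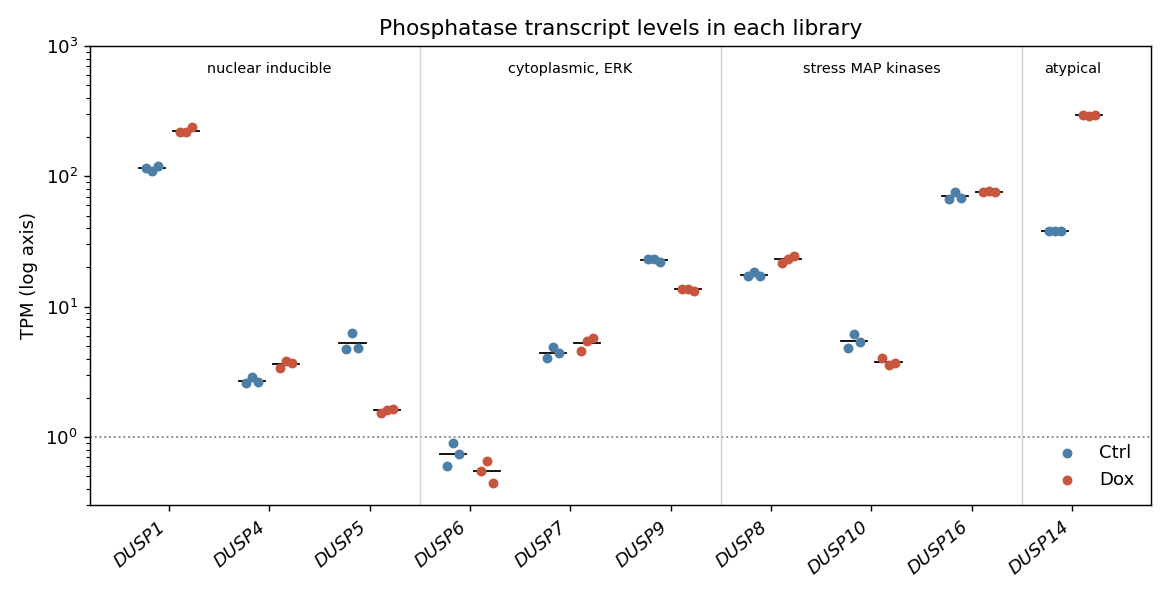
TPM of the 10 phosphatase genes on a log axis, 1 point per library (Ctrl blue, Dox red) with the group mean as a black line, ordered by role (the stress MAP kinases are JNK and p38); the dotted line marks 1 TPM. DUSP14 moved from a mean of 38.1 to 294 TPM, and DUSP6 stayed under 1 TPM in all 6 libraries.

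The atypical phosphatase DUSP14 (ENSG00000161326.8) had by far the largest difference among the 10 genes. This small enzyme, also called MKP6, is known from T cells as a negative regulator of signalling through the adaptor TAB1. Its level was 37.9, 38.4 and 38.0 TPM in the Ctrl libraries and 297, 289.9 and 296 TPM in the Dox libraries. The libraries of each group lay close together, with coefficients of variation of 0.624% and 1.29%, and the groups were far apart. Counting error alone is 3.52% at the lowest count (807 reads, in Ctrl). The Ctrl spread is under that, so it may understate the true spread, as may the SE below. The means differed 7.72-fold, with a log2 difference of 2.92 ± 0.03 (SE), which placed DUSP14 at rank 50 of the 14833 tested genes ordered from the largest rise. The values rest on 807 to 850 reads in Ctrl and 5557 to 6505 in Dox.

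The inducible nuclear enzymes did not move together. DUSP1 (MKP1, ENSG00000120129.5), an immediate early gene whose product acts on p38 and JNK as well as ERK, was at 117, 110.3 and 121 TPM in Ctrl and at 217, 219 and 237 TPM in Dox. Every Dox library was above every Ctrl library, and the log2 difference was 0.95 ± 0.05, a 1.93-fold ratio of means. DUSP1 is one of the CRE-bearing promoters printed above.

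DUSP5 (ENSG00000138166.5), which holds ERK inactive in the nucleus, went the other way. Its Ctrl libraries were at 4.78, 6.26 and 4.86 TPM and its Dox libraries at 1.53, 1.62 and 1.65 TPM. The mean TPM was 3.31-fold lower in Dox. On the log2(TPM + 1) scale, which understates changes of low genes, the difference was -1.27 ± 0.11. By that value the gene ranked 37 of all tested genes ordered from the largest fall. With a pseudocount of 0.1 the log2 difference was -1.66. Only 30 to 38 reads stand behind each Dox value, for which counting error alone is 18.3% at the lowest count, against 108 to 138 reads in Ctrl. The coefficient of variation in Dox, 3.83%, is under that error, so it may understate the true spread, as may the SE above.

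DUSP4 (MKP2, ENSG00000120875.4), a nuclear relative of DUSP1, was low in both groups, at 2.60, 2.89 and 2.64 TPM in Ctrl and 3.41, 3.83 and 3.70 TPM in Dox. The groups did not overlap, and the log2 difference was 0.32 ± 0.09. It no longer passed the threshold after quantile normalization (0.18), without Ctrl replicate 3 (0.31) or without Dox replicate 2 (0.29).

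Among the cytoplasmic enzymes that prefer ERK, DUSP9 (MKP4, ENSG00000130829.13), a gene of the X chromosome, was the most abundant in both groups. It was at 23.3, 23.2 and 22.2 TPM in Ctrl and at 13.6, 13.7 and 13.3 TPM in Dox. The groups did not overlap, with a mean 1.69-fold lower in Dox (log2 difference -0.71 ± 0.05). Coefficients of variation were 2.67% in Ctrl and 1.65% in Dox. Counting error alone is 5.94% at the lowest count (283 reads, in Dox), so these may understate the true spread.

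DUSP7 (MKPX, ENSG00000164086.8) was at 4.03, 4.92 and 4.39 TPM in Ctrl and 4.61, 5.43 and 5.76 TPM in Dox. The groups overlapped, since Ctrl 2 lay above Dox 1, and the log2 difference of 0.20 ± 0.10 did not pass the threshold.

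DUSP6 (MKP3, ENSG00000139318.7), the classical feedback phosphatase of ERK, was barely expressed. Its values were 0.602, 0.897 and 0.736 TPM in Ctrl and 0.548, 0.652 and 0.442 TPM in Dox, from 18 to 35 reads per library. The groups overlapped, and the gene was left out by the filter on low values. Without that filter its log2 difference was -0.17 ± 0.10 and did not pass. In GENCODE 29 an antisense gene, AC024909.2, overlaps 1875 of its exon bases, and with the strand setting of the counting not given its reads cannot be assigned with certainty.

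The enzymes that prefer JNK and p38 were split. DUSP8 (ENSG00000184545.6), whose promoter holds the pair of CREs, was at 17.1, 18.4 and 17.3 TPM in Ctrl and 21.8, 23.4 and 24.3 TPM in Dox. The groups did not overlap, and the log2 difference was 0.38 ± 0.06. DUSP10 (MKP5, ENSG00000143507.13) was lower in Dox, with Ctrl libraries at 4.85, 6.18 and 5.32 TPM and Dox libraries at 4.08, 3.58 and 3.73 TPM (log2 difference -0.42 ± 0.10, 103 to 181 reads).

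DUSP16 (MKP7, ENSG00000111266.4), which shuttles between nucleus and cytoplasm and acts mainly on JNK, was the second most abundant of the 10 in Ctrl. It was at 67.6, 75.5 and 68.7 TPM there and at 75.2, 77.2 and 75.3 TPM in Dox, so Ctrl 2 lay within the Dox range. The log2 difference of 0.11 ± 0.05 did not pass, and it was -0.01 with median-ratio rescaling and -0.02 with quantile normalization. Without Ctrl replicate 2 it passed the threshold at 0.15.

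**Figure D2:**
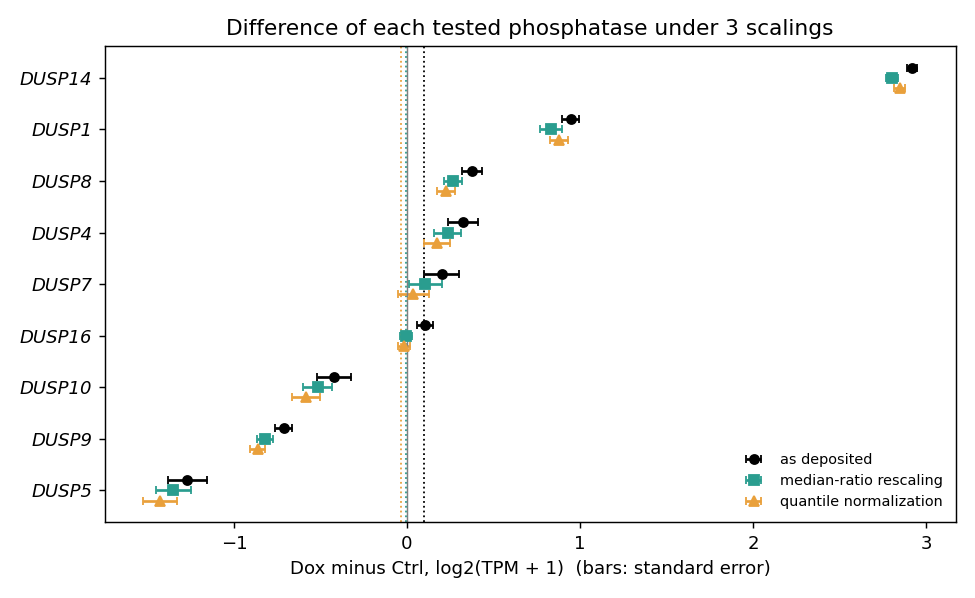
Log2 difference (Dox minus Ctrl, log2(TPM + 1)) of the 9 tested genes with its standard error, as deposited and after 2 rescalings; dotted lines mark the median of all tested genes under each. DUSP14 and DUSP5 are the extremes at 2.92 and -1.27, and the values of DUSP16 fall on both sides of 0.

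How the libraries are scaled shifts the differences by an amount that is small beside those of DUSP14, DUSP5 and DUSP1, but not beside the smaller ones. After quantile normalization the log2 difference of DUSP4 went from 0.32 to 0.18, and that of DUSP7 from 0.20 to 0.036. Relative to the deposited TPM, the median of all tested genes moved by -0.10 with median-ratio rescaling and by -0.13 with quantile normalization. The directions of DUSP14, DUSP1, DUSP8, DUSP4, DUSP7, DUSP5, DUSP9 and DUSP10 were the same under both, whereas that of DUSP16 turned.

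TPM is a per-length scale, so levels can be set side by side between genes as far as the gene lengths used hold. Separate libraries show only that a gap exceeds the spread among the libraries. In Ctrl the order of mean TPM was DUSP1, DUSP16, DUSP14, DUSP9, DUSP8, DUSP10, DUSP5, DUSP7, DUSP4 and DUSP6. The libraries of DUSP10 and DUSP5 overlapped in that order, as did those of DUSP5 and DUSP7, and the other neighbours were separate. In Dox the order was DUSP14, DUSP1, DUSP16, DUSP8, DUSP9, DUSP7, DUSP10, DUSP4, DUSP5 and DUSP6, with overlap between DUSP10 and DUSP4. DUSP14 thus went from the third place to the first, and DUSP8 and DUSP9 exchanged places.

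The summed level of the 10 genes was 284 ± 3.81 TPM in Ctrl (SD, n = 3) and 646 ± 12.9 TPM in Dox, which is 2.28-fold higher. DUSP14 made up 13.4% ± 0.127 of the sum in Ctrl and 45.6% ± 0.853 in Dox, and DUSP1 40.9% ± 2.13 and 34.7% ± 0.992. Without these genes, the sum over the other 8 was 129.7 ± 7.39 TPM in Ctrl and 127.5 ± 2.39 TPM in Dox, a difference within the spread of the Ctrl libraries. DUSP16 alone held 70.6 ± 4.27 TPM of that sum in Ctrl and 75.9 ± 1.16 TPM in Dox. DUSP9 and DUSP8, which went opposite ways, held most of the rest. By role, the sum of the cytoplasmic ERK enzymes was 28.1 ± 0.857 TPM in Ctrl and 19.4 ± 0.537 TPM in Dox, and that of the JNK and p38 enzymes 93.6 ± 5.64 and 103 ± 1.59 TPM. The inducible nuclear enzymes among the 10 genes, a sum without DUSP2, came to 124 ± 4.43 and 229.6 ± 11.0 TPM, nearly all of it DUSP1.

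**Figure D3:**
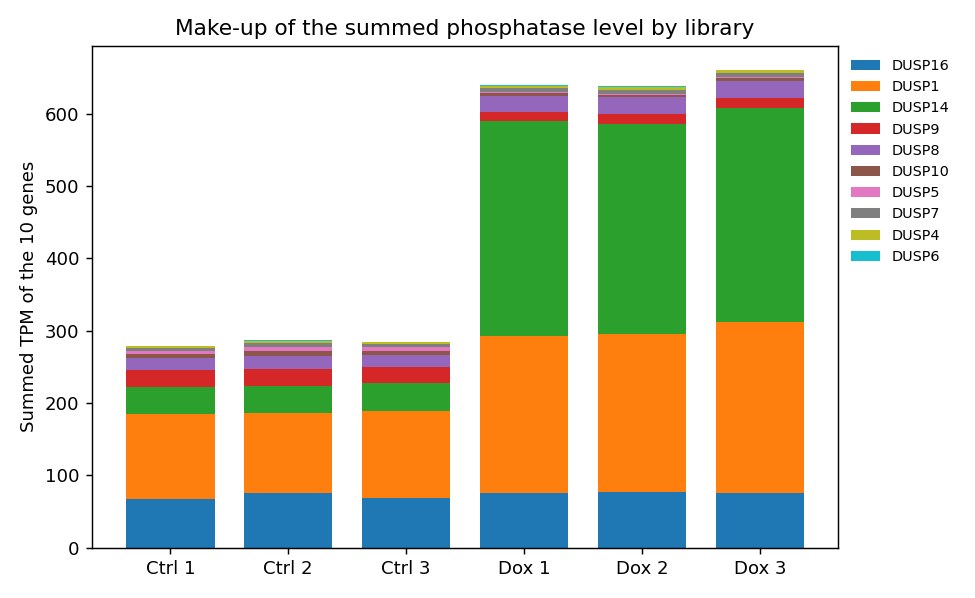
Summed TPM of the 10 genes in each library, stacked by gene, with the axis starting at 0. The Ctrl sums lie between 279 and 287 TPM and the Dox sums between 638 and 661 TPM, and the bands of DUSP14 and DUSP1 hold most of the gap.

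The rest of the pathway was read from 8 lists of 120 genes set out by role, of which 97 were tested in the same fit. Some of these genes had been described from these data before, so the counts are no independent evidence. Of the 97, 49 were higher and 15 lower at a limma adjusted p under 0.05, beside the background of 35.9% and 17.8%. Values for named genes are means ± SD (n = 3), and their log2 differences carry an SE. The genes given with such values or a fold had Ctrl and Dox libraries that did not overlap.

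Of 12 tested other dual-specificity phosphatases 3 rose and 3 fell, with a median log2 difference of -0.05. DUSP3 (VHR), an atypical enzyme that acts on ERK and JNK, rose from 54.6 ± 1.80 to 83.4 ± 1.27 TPM (limma adjusted p = 8.9e-06). The pseudophosphatase STYXL1 rose 1.26-fold and DUSP18 from 1.77 ± 0.209 to 2.54 ± 0.331 TPM. DUSP2, an inducible nuclear enzyme best known from immune cells, fell from 24.3 ± 1.21 to 17.2 ± 1.80 TPM (log2 difference -0.48 ± 0.08). DUSP27, a muscle pseudophosphatase, had 1.48 ± 0.237 TPM in Ctrl and 0.772 ± 0.0813 TPM in Dox and also fell, a call that ended without Ctrl replicate 3 (log2 difference -0.41, limma adjusted p = 0.052). The third fall was that of DUSP12, whose Ctrl and Dox libraries overlapped. Without Ctrl replicate 3, 1 gene of the list passed as lower in place of 3. DUSP18 did not pass without the filter (limma adjusted p = 0.072), after median-ratio rescaling (0.059) or quantile normalization (0.14), or without Ctrl replicate 1 (0.097), Ctrl replicate 3 (0.061), Dox replicate 2 (0.11) or Dox replicate 3 (0.064).

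Of 7 tested other phosphatases that act on MAP kinases, 5 rose and none fell (median 0.25). The catalytic subunit PPP2CB of protein phosphatase 2A rose from 66.7 ± 3.55 to 101.7 ± 4.23 TPM, and its scaffold subunit PPP2R1B from 20.2 ± 1.64 to 28.5 ± 1.29 TPM. PPM1D, which dephosphorylates p38, rose 1.21-fold, a call that ended after median-ratio rescaling (limma adjusted p = 0.058) and quantile normalization (0.17), and without Ctrl replicate 1 (0.052) or Dox replicate 2 (0.055).

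Among the 13 tested MAP kinases, 6 rose and 2 fell (median 0.22). MAPK4, an atypical MAP kinase, went from 0.332 ± 0.0713 to 4.83 ± 0.511 TPM (log2 difference 2.13 ± 0.11). MAPK3 (ERK1) rose 1.63-fold to 78.9 ± 2.17 TPM, and NLK 1.94-fold. MAPK6 (ERK3), the other atypical kinase of its pair with MAPK4, fell from 249 ± 7.37 to 105 ± 1.86 TPM (log2 difference -1.24 ± 0.03, limma adjusted p = 1.3e-07). MAPK7 (ERK5) fell 1.42-fold.

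Upstream, 6 of 13 Ras, Raf and MAP kinase kinase genes rose and 1 fell (median 0.10). NRAS rose 1.28-fold, and MAP2K3, which activates p38, fell from 90.0 ± 1.57 to 74.0 ± 2.54 TPM. Of 17 MAP kinase kinase kinases 9 rose and 1 fell (median 0.22). MAP3K14 (NIK), of the non-canonical NF-kB pathway, rose 2.23-fold to 56.3 ± 1.73 TPM, TAOK3 2.19-fold and MAP3K1 1.65-fold, while MAP3K8 (TPL2) fell 1.63-fold.

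Of 15 tested MAP kinase-activated kinases and scaffolds 7 rose and 3 fell (median 0.16). The kinases MKNK1 and MKNK2, which phosphorylate the translation factor eIF4E, went opposite ways. MKNK1 rose from 6.88 ± 0.135 to 12.2 ± 0.194 TPM, and MKNK2 fell from 913 ± 23.7 to 387 ± 36.3 TPM. The ribosomal S6 kinase gene RPS6KA3 rose 1.43-fold and the JNK scaffold gene MAPK8IP2 1.38-fold, and RPS6KA4 and MAPK8IP1 fell 1.23-fold and 1.20-fold.

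**Figure D4:**
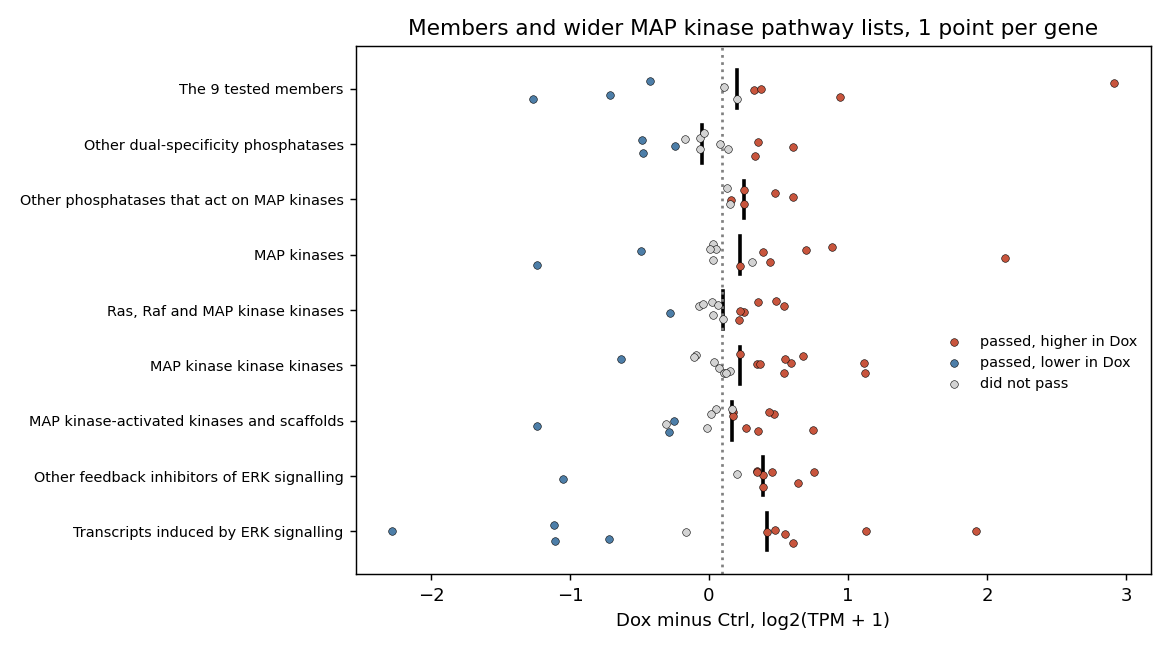
Log2 difference (Dox minus Ctrl) of every tested gene in the 9 phosphatases and the 8 pathway lists, 1 point per gene, coloured by call; black bars mark medians and the dotted line the median of all tested genes, 0.10. The medians run from -0.05 for the other dual-specificity phosphatases to 0.42 for the transcripts induced by ERK.

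Besides DUSP5 and DUSP6, ERK signalling is held back by other inhibitors, not all of them feedback genes. Of 9 tested, 7 rose and 1 fell (median 0.39). ERRFI1, an inhibitor of the EGF receptor, rose from 51.5 ± 2.69 to 87.3 ± 1.50 TPM, SPRY1 1.66-fold and the Ras GTPase-activating protein gene RASA1 1.39-fold. LRIG1, which promotes degradation of ERBB receptors, fell 2.15-fold to 12.7 ± 0.539 TPM.

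Of 19 transcripts known to be induced by ERK, 11 were tested, 6 rose and 4 fell (median 0.42). The receptor gene EPHA2 rose from 6.08 ± 1.20 to 25.6 ± 1.56 TPM, MYC 2.20-fold and CCND1 1.52-fold. FOS fell 5.04-fold, and ZFP36, which destabilises short-lived mRNAs, 2.18-fold to 43.0 ± 6.07 TPM. IER3, an early response gene, fell 2.18-fold. The 8 that were under the filter were EGR1, EGR2, EGR3, FOSL1, ETV1, ETV4, ETV5 and EPHA4. These low levels stood beside that of DUSP6, itself a transcript induced by ERK. Other genes of the list were far above the filter in Ctrl, with CCND1 at 197 ± 10.9, FOS at 89.9 ± 4.64 and MYC at 83.4 ± 4.23 TPM. What these levels say of ERK activity was not tested.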

How the data were processed

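TruSeq stranded mRNA libraries (per the labels' protocols) of 3 Ctrl and 3 Dox samples, grouped by title, were deposited by the authors as TPM per gene. The submitters' processing notes name FastQC 0.11.2, STAR 2.5.3a, featureCounts, edgeR and hg19, with no roles, strand setting or annotation release. TPM has a fixed total, so values are relative. The test was limma 3.58.1 (R 4.3.3, eBayes with trend) on log2(TPM + 1) for genes reaching 1 TPM in 3 or more libraries. It was two-sided and Benjamini-Hochberg adjusted over 14833 genes, with a threshold of 0.05. It was also run on simulated data with normally distributed values and few changed genes. These data differ from that setting, so the run does not vouch for the calls here. The log2(TPM + 1) scale understates changes of low genes. Other folds are ratios of mean TPM. Whole reads were recovered from TPM with GENCODE 29 exon lengths (9115 tested genes) or the smallest fitting length (5718; tolerance 0.01 reads), and 3 reads on 1 kb equal 0.335 to 0.401 TPM. A divisor shared by all 6 counts of a gene would make its reads too low.

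The 10 genes and the lists were chosen with earlier results of these data known. All 10 are named, and per list and direction up to 3 genes with the largest change that passed with separate groups. Some genes that meet this rule are not reported here. DUSP12 and the ERK-induced genes under the filter were named after their values were seen. Of 120 list genes, 4 were not analysed here. Alternatives were a pseudocount of 0.1, other filters, median-ratio rescaling, quantile normalization, leaving out each library, a replicate block and no variance trend. A fit with limma voom on recovered reads was added after the data were seen.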

Additional observations from a re-analysis of the deposited data

How the results depend on the processing

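Over 14 alternatives, each of the 9 tested phosphatases was refitted, giving 122 values, of which 116 kept direction and side of the threshold. The exceptions were DUSP4 (3 losses, given above) and DUSP16 (log2 difference -0.0075 after median-ratio rescaling, -0.016 after quantile normalization, and past the threshold without Ctrl replicate 2). With a mean of at least 5 TPM required, DUSP5, DUSP10, DUSP4 and DUSP7 were not tested, so the number of lower members was 1 and the median of those tested 0.38; after quantile normalization that median was 0.036. Over all tested genes median-ratio rescaling gave 3915 higher and 4010 lower, and quantile normalization 3536 and 4348, so the share of higher genes among those that passed was 66.8% as deposited, 49.4% and 44.9%. Of 224 list counts 213 stayed within 1.5 times. After median-ratio rescaling the other MAP kinase phosphatases had 3 higher, the Ras, Raf and MAP kinase kinases 2 lower, the MAP kinase kinase kinases 3 lower and the activated kinases and scaffolds 5 lower. After quantile normalization the activated kinases and scaffolds had 4 higher and 5 lower, the MAP kinases 4 lower, the Ras, Raf and MAP kinase kinases 4 lower and the MAP kinase kinase kinases 3 lower, as did the last with limma voom on recovered reads (3 lower). For the other dual-specificity phosphatases the number lower ran from 1 to 3 when a library was left out. The cause of these shifts was not tested. Same-numbered libraries did not deviate together (r = -0.009, 0.063 and 0.003 for the numbers 1 to 3). The replicate block gave 5223 higher and 2618 lower genes, with 4 higher and 3 lower phosphatases. Depth limits DUSP6 and, in Dox, DUSP5.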
